A study of Saccharomyces cerevisiae with 180 samples.

Results

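The K36me3 antibody was followed in 2 budding yeast strains that lack its target. Trimethylated lysine 36 of histone H3 (K36me3) is laid down by a single enzyme, Set2, which travels with elongating RNA polymerase II. The mark is therefore known from the bodies of transcribed genes, where it is read by the Rpd3S deacetylase through Eaf3 and keeps internal promoters shut. Trimethylated lysine 4 (K4me3) comes from Set1 in the COMPASS complex and marks the nucleosomes that follow the start of active genes. Each strain without the mark gives the material that the antibody held when its epitope could not be made.

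The members were 18 of the 180 libraries of the series, chosen by strain and by K36me3 as the first antibody. They comprised 9 libraries of strains without the mark and 9 matched libraries of the reference strains. The H3K36R strain carries H3 with lysine 36 replaced by arginine and was set against WT H3, both from a histone mutation library. The set2 strain lacks the methyltransferase and was set against the strain titled wild type of a yeast deletion library, whose strain label reads bar1. It is called bar1 here. For H3K36R and WT H3 the second step was Input, H3, K4me3, K18ac, K36me3 or K79me3, and for set2 and bar1 it was Input, K36me3 or K4me3. The Input libraries of H3K36R that were pulled down first with K4me3 and with H3 served as the comparison. Some libraries of further strains were read beside them. These were H3K4R and H3K18R, with lysine 4 or lysine 18 of H3 replaced by arginine, and the strain titled eaf3. All cells were grown in YPD, fixed with formaldehyde and digested with micrococcal nuclease. In the sequential scheme, nucleosomes held by a first antibody pass to a second, and Input was taken here to be first-step material that saw no second antibody. The labels leave this unsaid. The labels do not say how many clones or cultures stood behind a strain.

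Each strain and pair of antibodies was represented by 1 library. No difference between libraries therefore has a replicate check, and no p-value is given. The intervals are 95% counting intervals. They cover counting error only, and sequenced reads are not independent molecules. The 18 libraries held between 9597 and 2509006 reads. The K36me3-first Input held 434317 reads in H3K36R, 2509006 in WT H3, 24149 in set2 and 348217 in bar1. At these depths a nucleosome of the K36me3-first Input carried a mean of 6.68 reads in H3K36R and 0.371 reads in set2, where 71.1% of the 65032 nucleosomes had none. Single nucleosomes were therefore read in H3K36R only.

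The deleted gene was read first. SET2 (X:102227-104428 in sacCer3) had 0 reads in each of the 3 set2 libraries, where 30.6 would have been found at the shares of bar1. With a floor of 3 reads this allows up to 9.80% of that number. SET2 had 130, 170 and 59 reads in the bar1 libraries of Input, K36me3 and K4me3. In the K4me3-first Input of set2, which is much deeper, 12 reads fell on SET2, against 137 in that of bar1. Those libraries held 846274 and 585353 reads. The absence of SET2 reads thus did not extend to the K4me3-first Input of set2, and where the 12 reads came from was not tested. The substitution in H3K36R cannot be read from nucleosome counts, and the H3 genes HHT1 and HHT2 had 0 reads in all 6 of its libraries. They cannot be used as a check, since HHT1 had only 5 reads in the K36me3-first Input of WT H3. No pair of libraries in the series was identical.

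Far fewer reads followed the K36me3 antibody in both strains without the mark. Because the labels give no spike-in, the K36me3-first Input was set against the Input of the same strain after K4me3, K18ac and K79me3. In H3K36R those 3 held 1079550, 1220909 and 1153036 reads, and in WT H3 they held 758641, 1039775 and 1455269. Relative to the mean log2 change of these 3, the K36me3-first Input of H3K36R was 6.34-fold lower than that of WT H3 (log2 difference -2.67). Relative to the H3-first Input, which held 197217 and 187203 reads, it was 6.09-fold lower. The labels give no sign whether the strains of a set shared a tube, and only then do these figures measure recovery.

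The difference was uneven along genes. In genes of at least 1500 bp, nucleosomes centred less than 500 bp after the start codon formed the 5-prime zone, those from 1000 bp on the late zone, and those between them the middle zone. By the same reckoning, reads of H3K36R were 2.07-fold lower than those of WT H3 in the 5-prime zone, 6.98-fold lower in the middle zone and 20.7-fold lower in the late zone. In set2 the overall value was 58.7-fold, with 26.0-fold in the 5-prime zone and 134-fold in the late zone. The set2 figures rest on a bar1 library of K79me3-first Input with only 10044 reads. With K4me3 and K18ac alone as reference the log2 difference was -3.81 in place of -5.88, an alternative chosen after seeing the data. The larger difference in the late zone does not depend on that reference, which shifts all zones equally.

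What remained on the antibody was richer in the 5-prime ends of genes. In H3K36R, 42.0% of the zone reads of the K36me3-first Input fell in the 5-prime zone (95% interval 41.8 to 42.2) and 30.6% in the late zone. In WT H3 the same shares were 9.54% and 69.5%. The late to 5-prime ratio was thus 10.0-fold lower in H3K36R (log2 difference -3.32, counting SE 0.00823). In set2 the shares were 33.3% (95% interval 32.4 to 34.1) and 42.4%, against 10.7% and 70.7% in bar1. There the ratio was 5.16-fold lower (log2 difference -2.37, counting SE 0.0319). Strains that keep lysine 36 and Set2 stayed near the reference: the 5-prime share of K36me3-first Input was 8.11% in H3K4R, 9.18% in H3K18R and 10.9% in eaf3.

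The shift held for every second step. In H3K36R the 5-prime share was 35.1% after H3, 47.6% after K4me3, 45.3% after K18ac, 46.8% after K36me3 and 35.7% after K79me3. The matching libraries of WT H3 gave 9.93%, 30.9%, 15.2%, 9.18% and 9.79%. All 6 libraries of H3K36R thus lay above all 6 of WT H3, whose highest was the one passed to K4me3. In set2 the share was 37.8% after K36me3 and 40.4% after K4me3, and in bar1 it was 10.5% and 28.3%. Over the 6 second steps the late to 5-prime log2 ratio was lower by a mean of 2.75 (log2 difference -2.75 ± 0.86, SD over second steps, n = 6), from -3.73 for K36me3 to -1.19 for K4me3. Over the 3 second steps of set2 it was -2.01 ± 0.99, from -2.77 to -0.89. Both SDs are spread over second steps that follow the same first antibody, Input included, and are no replicate error. The smallest shift in both strains was that of the K4me3 second step, where the reference libraries were themselves rich in 5-prime reads.

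**Figure D1:**
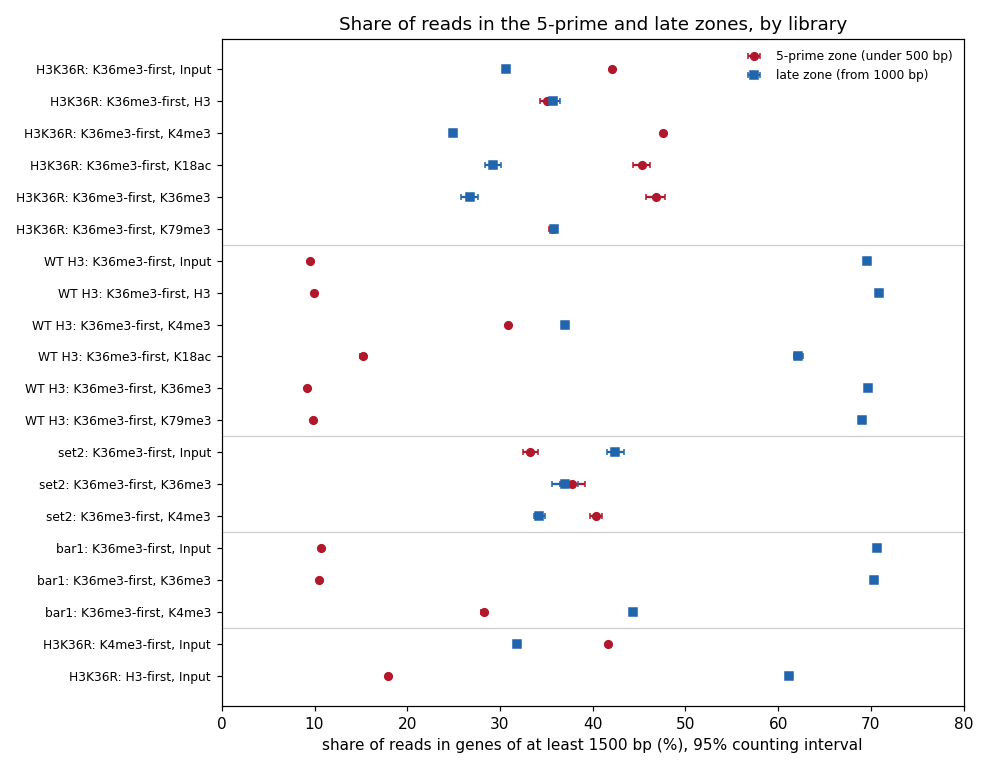
Share of reads (%, horizontal axis) in the 5-prime zone (red circles) and the late zone (blue squares) of genes of at least 1500 bp, for 18 K36me3-first libraries and the 2 comparison libraries of H3K36R. Bars are 95% counting intervals. The 5-prime shares of H3K36R run from 35.1% to 47.6% and those of WT H3 from 9.18% to 30.9%.

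The residual profile followed that of a K4me3 pull-down. In H3K36R the K36me3-first Input peaked 300 to 450 bp after the start codon with 33.5 CPM per nucleosome, where CPM are reads scaled to a common library total, and reached 5.85 in the bin from 2850 bp. The K4me3-first Input of the same strain peaked at 150 to 300 bp with 31.1 and reached 5.63. The H3-first Input was nearly level, from 13.4 in the first bin to 18.02 in the last. In WT H3 the K36me3-first Input climbed from 5.48 in the first bin to 26.5 in the last. Over the 20 bins, each a sum over genes, Pearson's r of the H3K36R profile was 0.998 with K4me3-first Input, 0.670 with H3-first Input, 0.772 with K18ac-first Input and 0.662 with K79me3-first Input of the same strain. With K36me3-first Input of WT H3 it was 0.136. These correlations describe bins of single libraries.

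The set2 profile also sloped down, but less steeply. The K36me3-first Input of set2 held 25.8, 25.0 and 24.0 CPM per nucleosome in the first 3 bins, too close to place a peak. It held 9.07 from 2850 bp, while bar1 climbed from 8.32 to 26.9. After K36me3 in the second step set2 peaked at 300 to 450 bp, and after K4me3 at 150 to 300 bp. Over the 20 bins Pearson's r of the set2 profile was 0.971 with K4me3-first Input of set2, 0.978 with that of bar1 and 0.300 with K36me3-first Input of bar1. With the K36me3-first Input of H3K36R, a library from the other set, it was 0.975. Gene totals did not separate these libraries in the same way. Over 6002 genes, thinned to 24149 reads, Spearman's rho of the set2 library was 0.58 with K36me3-first Input of bar1, 0.58 with that of H3K36R, 0.54 with K4me3-first Input of set2 and 0.51 with that of bar1. The late zone of set2 still held more reads than its 5-prime zone, unlike that of H3K36R. The K4me3-first Input of set2 was itself flatter than that of bar1, with 25.8% against 40.4% of zone reads in the 5-prime zone. The K36me3-first Input of set2, at 33.3%, lay between them.

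**Figure D2:**
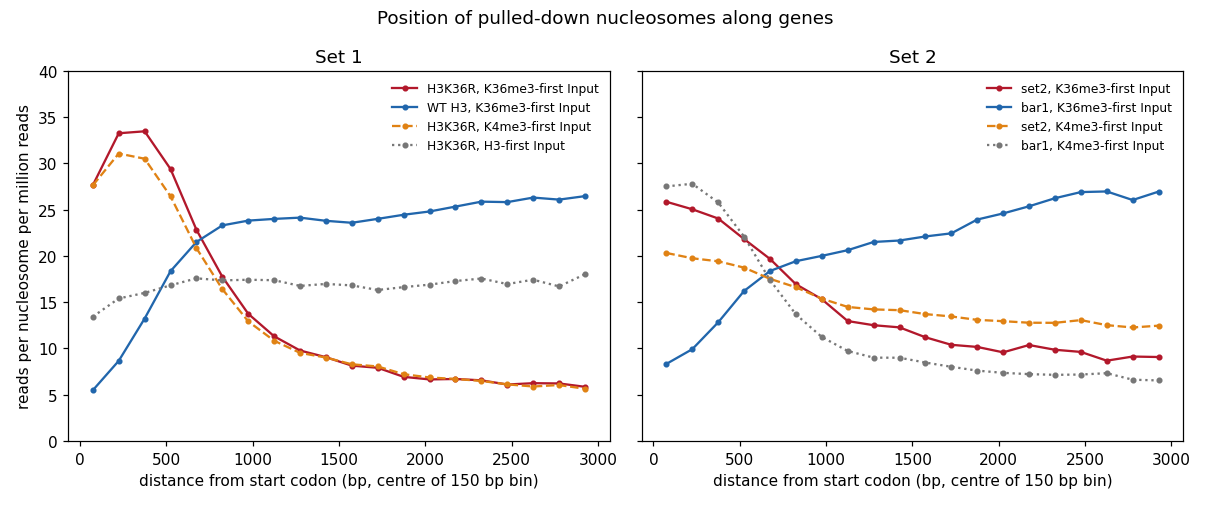
Reads per nucleosome in CPM (vertical axis) by distance from the start codon (horizontal axis, 150 bp bins) for Input libraries of set 1 (left) and set 2 (right). Lines join single libraries. The K36me3-first lines of H3K36R and set2 slope down from the first bins while those of WT H3 and bar1 slope up, and in H3K36R the line follows the K4me3-first Input.

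The same held nucleosome by nucleosome. The libraries were thinned to 187203 reads and compared over 65032 nucleosomes, where sampling noise limits every correlation. Spearman's rho of the K36me3-first Input of H3K36R was 0.68 with K4me3-first Input of H3K36R and 0.64 with K4me3-first Input of WT H3. It was 0.28 with K79me3-first, 0.23 with K18ac-first and 0.02 with H3-first Input of H3K36R, and 0.11 with K36me3-first Input of WT H3. The 6503 nucleosomes, 10% of all, with the most reads in K4me3-first Input of WT H3 held 30.4% of the reads of the K36me3-first Input of H3K36R (95% interval 30.3 to 30.6). They held 26.9% of the K4me3-first Input, 10.5% of the H3-first Input and, in WT H3, 10.2% of the K36me3-first Input. In set2 they held 21.6% of the K36me3-first Input against 9.26% in bar1. The same number of nucleosomes with the most reads after K36me3 in both steps in WT H3 were also followed. They held 13.5% of the K36me3-first Input of H3K36R, against 22.3% of that of WT H3. In H3K36R they held 13.4% of the H3-first Input and 11.1% of the K4me3-first Input. After K36me3 and a second step in H3K36R, they held 17.8% for H3, 16.6% for K79me3, 13.4% for K36me3 and 13.3% for K4me3. The K18ac second step lay below these but above the K4me3-first Input.

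Nucleosomes with at least 30 reads in both libraries together were compared as log2(CPM + 5). Of all 40379 compared between H3K36R and WT H3, 14.9% were at least 2-fold higher and 41.6% at least 2-fold lower (median -0.72). The minimum kept 3808 of 6646 nucleosomes of the 5-prime zone and 18277 of 19805 of the late zone, and an early nucleosome could pass mainly through H3K36R, so the class counts describe those that passed. Of those, 63.9% of the 3808 nucleosomes of the 5-prime zone were at least 2-fold higher in share of reads (median log2 difference 1.29). Of the 18277 in the late zone, 72.4% were at least 2-fold lower (median -1.48). Nucleosomes between divergent genes, which lie upstream of a start on both sides, had a median of 0.31 (286 nucleosomes). They were split, with 36.7% at least 2-fold higher and 29.4% at least 2-fold lower. Those between convergent genes, past the ends of both, had a median of -0.92 (723), near that of all nucleosomes. The minimum applies to these 2 classes as well. Against the K4me3-first Input of H3K36R, 0.706% of 20112 nucleosomes were at least 2-fold higher and 2.37% at least 2-fold lower, with a median of 0.03. Here the minimum kept 4968 of 6646 nucleosomes of the 5-prime zone but only 1191 of 19805 of the late zone. A nucleosome could pass mainly through the deeper K4me3-first Input. These shares therefore describe mostly nucleosomes with many K4me3-first reads, and most of the late zone was not compared.

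The 4 highest nucleosomes within genes were all early ones. Ranked by the interval bound nearest to 0, the first of the 5 highest lay at VII:249968-250118 in sacCer3, 174 bp into SEC27, which encodes a subunit of the COPI vesicle coat. It had 27 reads in the K36me3-first Input of H3K36R and 6 in the deeper Input of WT H3 (log2 difference 3.18). The same nucleosome had 24 reads after K4me3 in the second step, 36 in K4me3-first Input and 2 in H3-first Input of H3K36R. Of the others, 1 lay 143 bp into POM34, a nuclear pore membrane protein, with 29 reads against 7, and 1 lay 121 bp into UGO1, a mitochondrial fusion protein, with 31 against 8. At the other end was a nucleosome at IV:205811-205961, 4675 bp into RPO21, the largest subunit of RNA polymerase II. It had 0 reads in the K36me3-first Input of H3K36R against 128 in WT H3, and 1 read in K4me3-first against 5 in H3-first Input of H3K36R. The other 4 of the 5 lowest lay 1846 to 4149 bp into Ty and telomeric Y′ genes (YGR027W-B, YJR029W, YRF1-5 and YEL077C), whose reads cannot be told apart from those of near-identical copies.

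The second pull-down asked which marks the residual nucleosomes carried. Yields are reads of the second step per 100 reads of the Input library with the same first antibody. From K36me3-first material of H3K36R, K4me3 gave 89.8 reads per 100, against 15.3 in WT H3 (log2 difference 2.55). This was close to the 82.9 that K4me3 gave from K4me3-first material of H3K36R, and above the 7.90 from H3-first, 17.2 from K18ac-first and 14.8 from K79me3-first material. In the H3K4R strain, which keeps K36me3 but cannot carry K4me3, the K4me3 step gave 0.133 per 100 from K36me3-first material. The absolute number of K36me3 then K4me3 reads was 390200 in H3K36R and 383876 in WT H3.

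K18ac, K79me3 and H3 differed less between the strains. K18ac gave 5.63 per 100 in H3K36R and 2.49 in WT H3 (log2 difference 1.18), close to the 6.48 from K4me3-first material of H3K36R. K79me3, a mark of transcribed gene bodies laid down by Dot1, gave 29.8 and 24.8 (0.27). It gave 10.4 from K4me3-first and 30.1 from H3-first material of H3K36R, so in this step the K36me3-first material lay with H3 and not with K4me3. H3 gave 6.46 and 5.61 (0.21).

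The K36me3 antibody recovered little of what it had already held. A second K36me3 step gave 4.31 per 100 in H3K36R and 30.9 in WT H3 (log2 difference -2.84). Within H3K36R this was still the highest yield of that step, above 0.977 from K4me3-first, 0.906 from K18ac-first, 0.668 from K79me3-first and 0.558 from H3-first material. The nucleosomes held by the antibody in both steps had the second highest 5-prime share of the 6 libraries, 46.8%. In the order K4me3 then K36me3 the share was 48.8% in H3K36R and 31.6% in WT H3, and in the order H3 then K36me3 it was 23.1% (95% interval 19.9 to 26.6) and 8.49%.

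In set2, K4me3 gave 209.8 reads per 100 from K36me3-first material against 48.7 in bar1 (log2 difference 2.11), and 143 from K4me3-first material of set2. K36me3 gave 39.7 against 118 (-1.57). From K4me3-first material of set2 it gave 15.8, from K18ac-first 6.72 and from K79me3-first 5.73. Both differences had the direction seen in H3K36R. Yields above 100 mean that the second-step library held more reads than its Input, so values of the 2 sets are on different scales.

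**Figure D3:**
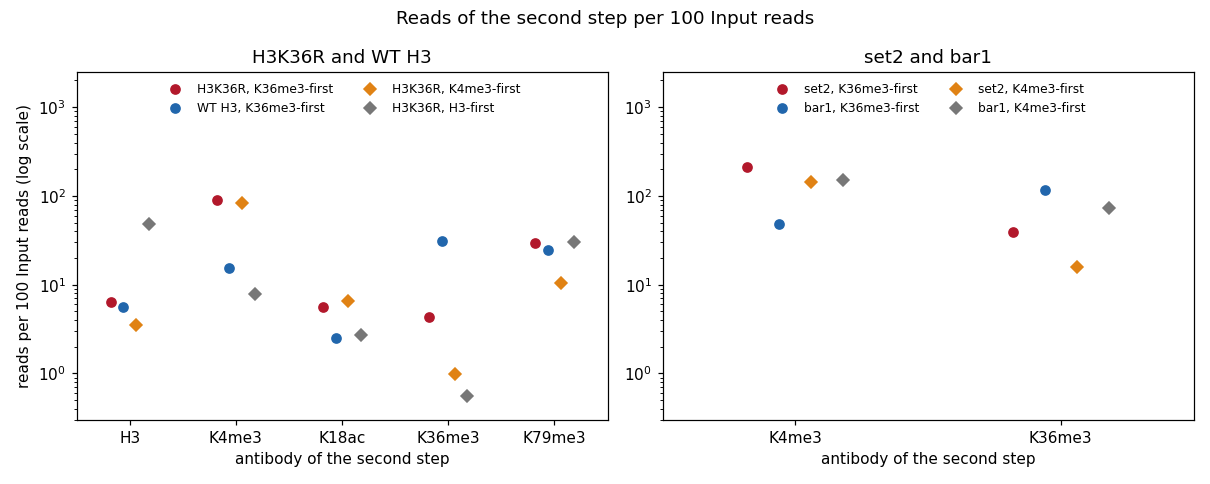
Reads of the second step per 100 Input reads (vertical axis, log scale) by the antibody of the second step, for H3K36R and WT H3 (left) and set2 and bar1 (right). Circles are K36me3-first material, diamonds K4me3-first or H3-first material, each a single library. For K4me3 the K36me3-first value of H3K36R, 89.8, lies beside that of K4me3-first material, 82.9.

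Gene by gene, the K36me3-first Input of H3K36R lay close to a K4me3 pull-down of the same strain. Reads were summed over each gene and compared as log2(CPM + 5) in genes with at least 50 reads in both libraries together. Against K4me3-first Input 5048 genes were compared. Of these 1 was at least 2-fold higher (0.0198%) and 110 were at least 2-fold lower (2.18%), so that 97.8% lay within 2-fold. Against H3-first Input 4087 genes were compared, with 919 higher (22.5%) and 405 lower (9.91%), and 67.6% within 2-fold. Against K36me3-first Input of WT H3 4948 genes were compared, with 1114 higher (22.5%) and 581 lower (11.7%). These splits depend on the scaling, since the medians of all genes were 0.29 against H3 and 0.26 against WT H3. With the medians set equal, the higher genes were 48.2% of the calls against H3 in place of 69.4%, and 46.3% against WT H3 in place of 65.7%. In genes with at least 200 reads the split against WT H3 was 45.0%. Within WT H3, K36me3-first against H3-first Input gave 323 of 4857 higher (6.65%) and 638 lower (13.1%), a split of 33.6% higher that became 22.2% with equal medians and turned round to 83.2% in genes with at least 200 reads. K4me3-first against H3-first Input of H3K36R gave 1052 of 5080 higher (20.7%) and 478 lower (9.41%). Between the H3-first Inputs of H3K36R and WT H3, 36 of 2470 genes were higher (1.46%) and 38 lower (1.54%). With the libraries thinned to equal depth, Spearman's rho of the K36me3-first Input of H3K36R over 6002 genes was 0.92 with K4me3-first Input, 0.69 with K18ac-first, 0.80 with K79me3-first and 0.64 with H3-first Input of H3K36R, and 0.81 with K36me3-first Input of WT H3. Gene length, shared by all libraries, contributes to each.

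Levels taken from separate libraries of both strains also ran closest with K4me3. The level of a gene in the K36me3-first over the H3-first Input of H3K36R was set against the level of each mark over H3 in WT H3, for 4251 genes with at least 10 reads in both H3 libraries. Spearman's rho was 0.76 for K4me3, 0.40 for K36me3, 0.38 for K18ac and 0.31 for K79me3. In 4 equal groups of genes from the lowest to the highest K4me3 level in WT H3, the median log2 level of the residual K36me3 pull-down was -1.14, -0.15, 0.34 and 0.91. Grouped by K36me3 level it was -0.68, 0.06, 0.18 and 0.43. Gene length was not adjusted for. Summed over genes under 750 bp and of at least 5000 bp, the residual pull-down over H3 was 0.48 and -1.05. The K36me3 pull-down of WT H3 over H3 ran the other way, with -1.05 and 0.55. How far length shapes these correlations was not tested.

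**Figure D4:**
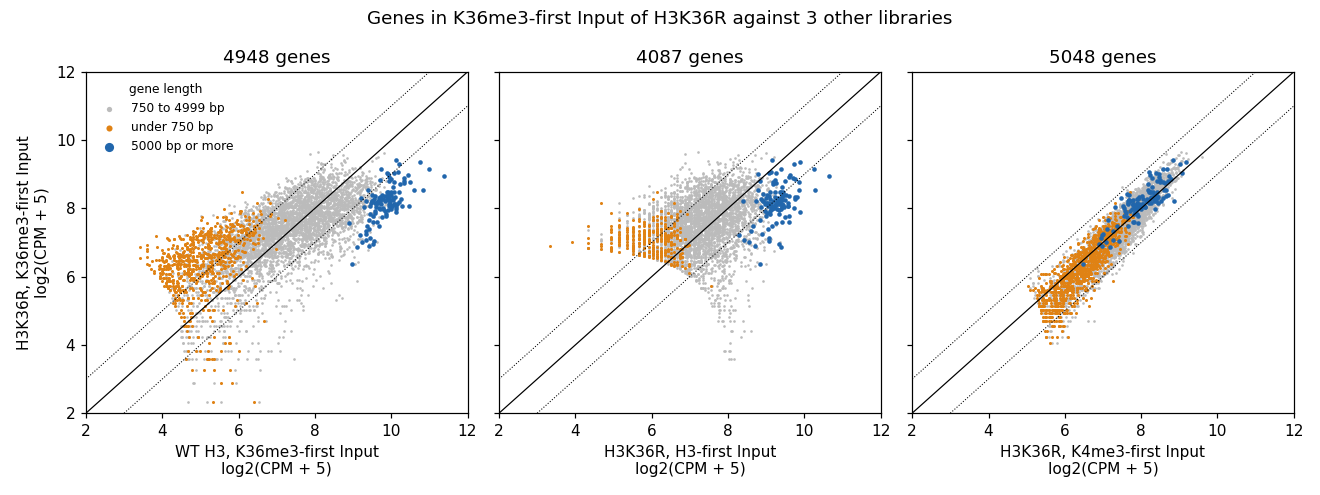
Genes with at least 50 reads in both libraries together, K36me3-first Input of H3K36R (vertical axis, log2(CPM + 5)) against K36me3-first Input of WT H3 (left), H3-first Input of H3K36R (middle) and K4me3-first Input of H3K36R (right). Orange points are genes under 750 bp, blue points genes of 5000 bp or more, solid lines equality and dotted lines 2-fold. The points close on the line in the right panel only, where 97.8% of 5048 genes lie within 2-fold, and most blue points lie below it in the left and middle panels.

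The differences from WT H3 ran with gene length. All genes under 750 bp together held 2.89% of the reads in WT H3 and 8.45% in H3K36R (log2 difference 1.55). The 117 genes of at least 5000 bp held 11.1% and 3.57% (-1.64), and 109 of these were at least 2-fold lower, against 11.7% of all genes. In set2 the values against bar1 were 1.18 and -1.44, with 89 of the 117 long genes at least 2-fold lower, against 29.6% of all genes compared there. Against K4me3-first Input of H3K36R the same sums were -0.13 and 0.19. The 50-read minimum lets a short gene pass mainly through the library where it is high, so sums over every listed gene, which use no minimum, stand beside the list counts below against H3-first Input and WT H3.

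REA1, the longest gene counted, encodes an AAA ATPase of ribosome assembly and spans 14733 bp (XII:349006-363738). In WT H3 it had 125 reads in the 5-prime zone and 6249 in the late zone, and in H3K36R 62 and 98. The K4me3-first Input of H3K36R had 144 and 226, and the H3-first Input 5 and 298. REA1 as a whole held 2659 CPM in WT H3 and 488 CPM in H3K36R (log2 difference -2.43, 95% interval of the read ratio -2.65 to -2.25), and 2656 and 248 CPM in bar1 and set2 (-3.39). RPO21 had 271 and 2368 reads in the 2 zones in WT H3 and 95 and 81 in H3K36R. Its log2 difference was -1.13 in H3K36R and -1.48 in set2. SPT6, a histone chaperone that Set2 activity depends on, had 120 and 1458 reads in WT H3 and 33 and 26 in H3K36R (-2.13), and in set2 its difference was -1.59.

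Against H3-first Input of H3K36R, MRT4 and NPL3 ranked first. NPL3 (IV:1328783-1330027), an mRNA export and processing factor, held 771 CPM in the K36me3-first Input of H3K36R. After the second steps H3, K4me3, K18ac, K36me3 and K79me3 it held 1140, 707, 490, 694 and 556 CPM. The K4me3-first Input held 395 CPM, the H3-first Input 112 CPM and the K36me3-first Input of WT H3 229 CPM. All 6 K36me3-first libraries of H3K36R lay above both comparison libraries (log2 difference of the Inputs against H3-first 2.74, 95% interval 2.17 to 3.48). NPL3 was named because its Input was among the highest against both of these. The second steps follow the same first antibody in the same strain, so they are no independent check. In set2 NPL3 held 621 CPM (15 reads) in Input against 181 CPM in bar1 (1.75, 0.86 to 2.61). Its second steps did not follow, with 104 CPM after K36me3 (1 read) and 158 CPM after K4me3 (8 reads), against 173 and 472 CPM in bar1.

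NAB2 (VII:278946-280523), which binds poly(A) tails in the nucleus, held 806 CPM against 142 CPM in H3-first Input (2.46) and 265 CPM in WT H3. In set2 it held 663 CPM in Input, 417 CPM after K36me3 and 888 CPM after K4me3, each above the 233, 263 and 478 CPM of bar1 (Input difference 1.49). These set2 libraries held only 24149, 9597 and 50657 reads, so the values in Input and after K36me3 rest on few reads. MCM1, a transcription factor of mating and cell-cycle genes, held 283 against 30.4 CPM in H3-first Input (3.02), where only 6 reads fell on it. MRT4, RPF2 and MAK16, factors of the large ribosomal subunit's assembly, had log2 differences of 3.49, 2.78 and 2.70 against H3-first Input. Against K4me3-first Input the differences of these 5 genes ran from 0.21 for RPF2 to 0.85 for MRT4. SRO9 and PUB1, RNA-binding proteins, and CCW14 and TOS1, of the cell wall, completed the 10 with 2.45, 2.41, 2.93 and 2.72.

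Among the 10 lowest against H3-first Input was ADR1 (IV:895035-899006). ADR1, an activator of genes that glucose represses, held 104 CPM in the K36me3-first Input of H3K36R and 588 CPM in H3-first Input (log2 difference -2.45), and 430 CPM in K36me3-first Input of WT H3. Between set2 and bar1 its difference was -1.66 (3 against 140 reads). HEF3, a copy of the translation elongation factor 3 gene, held 69.1 against 375 CPM (-2.36). VTH1 and VTH2, near-identical sorting receptor genes whose reads may be split between them, had -2.61 and -3.05. Of the other 6, YPL060C-A, YHL009W-B, YOR343W-B and YAR009C are Ty genes, YEL077C is a telomeric Y′ gene and COS111 is the last. Their differences ran from -2.52 to -2.34. All 6 were within 0.56 of the K4me3-first Input, the largest being YAR009C (0.56). COS111 and YAR009C were also among the 10 highest genes in H3-first Input of H3K36R against that of WT H3. Their low values thus rest in part on high H3-first counts.

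Against WT H3, SGF29 (III:103571-104350) had the highest bound. Its product is a SAGA subunit that binds methylated lysine 4, and it held 214 CPM (93 reads) in H3K36R and 27.1 CPM (68 reads) in WT H3 (log2 difference 2.77, 95% interval 2.52 to 3.45). In K4me3-first Input of H3K36R it held 174 CPM. TRS23, a tethering complex subunit (2.74), PFY1, which encodes profilin (2.64), VMA11, a vacuolar ATPase subunit (2.57), and CYT2, a heme lyase (2.54), followed, and the longest of the 10 highest genes was SGF29 itself with 780 bp. In set2, PFY1 and VMA11 held 2 and 4 reads and SGF29 and TRS23 held 0, too few to read. The lowest included EMA35 and YFL067W near chromosome ends, with 0 reads in H3K36R against 219 and 199 in WT H3. With a floor of 3 reads they were at least 12.6-fold and 11.5-fold lower. TIR4, a cell wall mannoprotein gene, held 6.91 CPM against 169 CPM (-3.87).

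Very few genes set the K36me3 antibody apart from the K4me3 antibody in H3K36R. SPT16 (VII:98969-102076), a subunit of the FACT histone chaperone, was the gene past 2-fold, with 387 CPM after K36me3 and 175 CPM after K4me3 (log2 difference 1.12, 95% interval 0.84 to 1.45). Of its 168 reads 85 lay in the 5-prime zone and 41 in the late zone, against 114 and 30 of 189 in the deeper K4me3-first Input, so the excess was not kept to the early gene. In WT H3 they were 156 and 807 of 1153. In set2 SPT16 was also higher in K36me3-first than K4me3-first Input (1.40, 0.52 to 2.21, 14 reads). NPL3 (0.96), MON2 (0.91), MRT4 (0.85), RPO21 (0.84), STP2 (0.84), UBR1 (0.82), DPS1 (0.82), BDF1 (0.78) and XRN1 (0.76) came next. In set2 only NPL3 of these 9 had an interval clear of 0 (2.15, 1.31 to 2.97), and MON2, RPO21 and DPS1 had values below 0 with intervals that include 0. The lowest genes were weakly covered, such as HAL1 (-2.09, 9 against 113 reads), THI73 (-1.91) and TMA20 (-1.39).

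Of 100 ribosomal protein genes that passed the minimum (of 138), 68 were at least 2-fold higher than in H3-first Input of H3K36R and 0 lower, against 22.5% and 9.91% of all genes. Their median was 1.30 beside 0.29 for all genes, and the sum over the list was 1.18 higher (95% interval 1.11 to 1.25). Many of these genes are paralog pairs whose reads can be split. Of 32 proteasome genes, 19 were higher and 0 lower (median 1.11, sum 1.15), and of 15 glycolysis and fermentation genes 6 were higher and 0 lower (0.69, sum 0.76). Of 88 subtelomeric genes (those 20 kb or less from an end) 3 were higher and 57 lower (-1.40, sum -1.48). Of 12 meiosis and sporulation genes 1 was higher and 7 lower (-1.30, sum -1.63), and of 10 glucose-repressed genes 0 were higher and 6 lower (-1.37, sum -1.01).

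Against K4me3-first Input of H3K36R these 6 lists had medians of 0.02, 0.18, -0.10, -0.14, -0.42 and -0.37 in the same order, beside -0.03 for all genes. The counts past 2-fold were 0 higher in each and, in the same order, 1 of 130, 0 of 32, 0 of 16, 5 of 108, 2 of 14 and 2 of 12 lower, against 0.0198% and 2.18% of all genes. The K36me3 pull-down of WT H3 also took fewer reads than H3 from meiosis genes (sum -1.14) and glucose-repressed genes (-1.14) and more from ribosomal protein genes (0.39). IME2, a kinase of meiosis, held 20.7 CPM in K36me3-first, 50.0 in K4me3-first and 279 in H3-first Input of H3K36R.

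The other lists against H3-first Input were nearer to all genes or small. Of 28 ribosome biogenesis genes 9 were higher and 1 lower (median 0.49, sum 0.32), of 8 genes for RNA polymerase II subunits 4 and 0 (1.07, sum 0.44), of 12 heat shock genes 1 and 1 (-0.06, sum 0.20), of 4 galactose genes 0 and 2 (-0.90, sum -1.03), and of 2 histone genes 2 and 0 (1.65, sum 1.02). Heat shock genes had a median and a sum of opposite sign. SUC2, which encodes invertase and is repressed by glucose, held 59.9 CPM in K36me3-first, 110 in K4me3-first and 223 in H3-first Input of H3K36R.

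**Figure D5:**
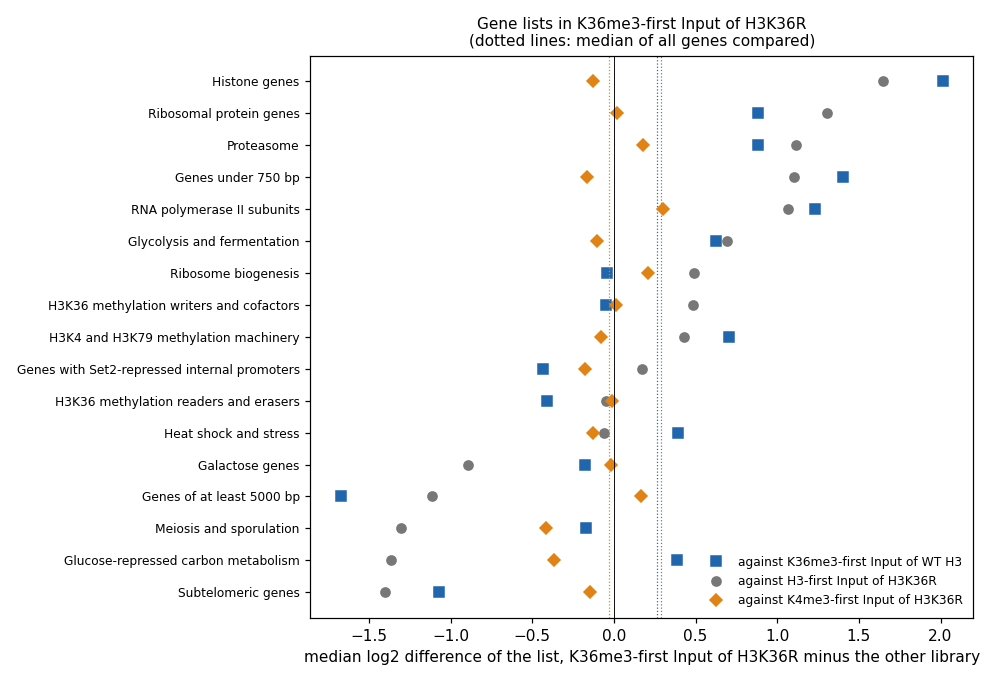
Median log2 difference of each gene list (horizontal axis) between the K36me3-first Input of H3K36R and 3 other libraries, for list members that passed 50 reads. Dotted lines give the median of all genes compared. Medians against K4me3-first Input (orange) stay between -0.42 and 0.30, while those against H3-first Input (grey) run from -1.40 to 1.65.

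Genes of the methylation machinery itself were counted as well. Of 13 genes for writers and cofactors of K36 methylation, 3 were higher and 1 lower against WT H3 (median -0.05 beside 0.26, sum -0.21), where the lower one was SPT6. Of 14 genes for readers and erasers 0 were higher and 2 lower (-0.41, sum -0.52), and of 13 genes for K4 and K79 methylation 3 were higher and 0 lower (0.70, sum 0.24). Beside 22.5% higher and 11.7% lower among all genes, these counts are no result about the lists. Against K4me3-first Input of H3K36R none of the genes of these 3 lists was past 2-fold, where only 0.0198% of all genes were higher and 2.18% lower, and the medians were 0.01, -0.01 and -0.08. Of the genes with internal promoters that Set2 represses, STE11 and PCA1 were found, with a median of 0.17 against H3-first and -0.18 against K4me3-first Input. In the late zone of PCA1 the K36me3-first Input of H3K36R had 76 of 118 reads and the K4me3-first Input 254 of 403. In that of STE11 they had 19 of 76 and 60 of 176.

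In set2, 2207 genes passed the minimum against bar1, including all 117 of at least 5000 bp but 3 of 1618 under 750 bp. Of these 192 were at least 2-fold higher (8.7%) and 654 lower (29.6%), around a median of -0.41. The bar1 library held 348217 reads and the set2 library 24149, so a gene passed mainly through bar1, which favours lower calls. At a minimum of 20 reads 717 were higher and 975 lower, and at 200 reads 0 and 157. The split is thus no result about the genes. With equal medians the higher genes were 44.0% of the calls in place of 22.7%. With the further demand that the counting interval exclude 0, a rule chosen after seeing the data, 153 were higher (6.93%) and 366 lower (16.6%). In total 82 genes had no read in set2. The lowest by bound were REA1, RAD50 (0 against 227 reads, at least 5.25-fold lower), TRS120, the Ty genes YLR035C-A and YOR192C-B, AXL1, CSF1, RQC2, UTP10 and MLP1. The highest were SWE1, a cell-cycle kinase (704 against 238 CPM, 1.54), SEC23, a COPII coat subunit (704 against 241 CPM, 1.53), DBP9, BUB1, WHI3, FAP1, GUS1, RQC1, EDE1 and COY1, each with 15 to 26 reads in set2.

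Both strains were compared over the 2205 genes that passed in each, and these comparisons share no library. Spearman's rho of the log2 differences was 0.49, in which gene length is shared. Of the 2205 genes, 432 were at least 2-fold lower in H3K36R and 652 in set2. Of these 269 were common, 62.3% of the 432 and 41.3% of the 652. At least 2-fold higher were 73 of the 2205 in H3K36R and 192 in set2. Of these 23 were common, 31.5% of the 73 and 11.98% of the 192. Among all 2207 genes compared in set2, 29.6% were lower and 8.7% higher, so part of each overlap is shared by any gene. The 2205 genes also passed in set2 mainly through the deeper bar1 library. In H3K36R they had more lower than higher calls, whereas its 4948 genes had 1114 higher and 581 lower. The overlaps thus describe genes selected by that minimum. NPL3 (1.73 and 1.75), NAB2 (1.58 and 1.49) and SRO9 (1.16 and 1.81) were higher in both. Against K4me3-first Input of set2, 4700 genes were compared, with 544 higher (11.6%) and 1171 lower (24.9%), and 611 genes without a read in K36me3-first Input. The K4me3-first library held 846274 reads against 24149, so a gene passed mainly through it. Each gene without a K36me3-first read was counted as lower, so depth enters the lower count. With an interval clear of 0 the counts were 332 (7.06%) and 139 (2.96%).

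Gene totals after K36me3 and then K4me3 differed little with or without the mark. Between the K36me3 then K4me3 libraries of H3K36R and WT H3, 138 of 4135 genes were at least 2-fold higher (3.34%) and 146 lower (3.53%), and 93.1% lay within 2-fold. The zones still differed, with 47.6% against 30.9% of reads in the 5-prime zone and 25.0% against 37.0% in the late zone. The peak lay at 300 to 450 bp in H3K36R and at 450 to 600 bp in WT H3. Of the 117 long genes 47 were at least 2-fold lower and 0 higher.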

How the data were processed

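The files deposited hold raw read counts of each nucleosome in each library. Per the submitters' processing notes, Bowtie2 aligned the reads to sacCer3. Its version and the handling of duplicates and barcodes were not given in the sources used here. Each library was mapped to strain and antibodies from its title and characteristics. Gene positions came from a RefSeq table of the R64 assembly, with strand from the letter W or C in systematic names and coding length as length. Nucleosomes whose centre lay in exactly 1 gene were used (51629 of 65032).

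Counts were scaled to the library total and compared as log2(CPM + 5), which understates changes of weakly covered genes. Intervals are exact conditional ones of the read ratio, without the pseudocount, or Clopper-Pearson for shares, so a difference can lie outside its interval. With 1 library per group no test was possible. Named genes were the 10 highest and 10 lowest per comparison by the bound nearest to 0, among genes with at least 100 reads, plus up to 4 per list with the most reads, and SET2, HHT1 and HHT2. The members and lists were chosen with earlier results of these data known. The code was tested on simulated data. Python 3.11.15, numpy 2.4.6, pandas 2.3.3 and scipy 1.17.1 were used. Alternatives were other references, denominators, zone limits, pseudocounts, read minimums and scalings, and leaving out the top 1% of nucleosomes.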

Additional observations from a re-analysis of the deposited data

Results flagged for a closer look

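Of the genes named for either strain, 3 had differences of opposite direction in H3K36R and set2, with both counting intervals clear of 0. The difference between the strains was not tested. BUB1, a kinase of the spindle checkpoint, had a log2 difference of -0.50 in H3K36R against WT H3 and 1.25 in set2 against bar1. FAP1 had -0.46 and 1.15, and EDE1, an endocytosis scaffold, had -0.33 and 0.91. In set2 these rest on 16, 18 and 26 reads, and they were named because they were among the 10 highest there.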

How the results depend on the processing

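No paired analysis was possible because each group held 1 library, and no replicate could be left out. Recovery in H3K36R was -3.04, -2.76, -2.19 and -2.61 (log2) with K4me3-, K18ac-, K79me3- or H3-first Input alone as reference and -2.90 with K4me3 and K18ac. In set2 it was -4.38, -3.24 and -10.005 with K4me3, K18ac or K79me3 alone and -3.81 with K4me3 and K18ac. With the H3 second step as denominator, yields in H3K36R differed by 2.35 for K4me3, 0.97 for K18ac, -3.05 for K36me3 and 0.060 for K79me3. The late to 5-prime difference was -3.81, -3.60 and -3.53 in H3K36R and -2.68, -2.61 and -2.45 in set2 with a 5-prime zone under 300 bp, a late zone from 1500 bp and genes of at least 2500 bp. At 200 reads or more, 404 genes were higher and 493 lower against WT H3, 121 higher and 63 lower against H3, 5 lower against K4me3, 0 higher and 157 lower in set2 against bar1, 58 higher and 158 lower in set2 against K4me3, and 283 higher and 57 lower in WT H3 against H3. At 20 or more, 717 were higher and 975 lower in set2 (42.4% higher in place of 22.7%), 736 lower against H3, 2 higher and 178 lower against K4me3, and 1018 lower in WT H3 against H3. With equal medians, 733 were higher against WT H3, 371 in set2 against bar1, 584 higher and 628 lower against H3, 2 higher against K4me3 and 211 higher in WT H3 against H3. Against K4me3, a pseudocount of 1 CPM gave 2 higher, one of 20 CPM 29 lower, and leaving out the top 1% of nucleosomes 3 higher. A pseudocount of 20 CPM gave 205 higher in WT H3 against H3. With the counting interval clear of 0, added after seeing the data, 366 genes were lower in set2 against bar1, and 332 higher and 139 lower against K4me3 in set2. Pearson's r over genes of the K36me3-first Input of H3K36R was 0.81 with WT H3 K36me3, 0.69 with H3 and 0.93 with K4me3. It was 0.84, 0.70 and 0.97 without thinning, 0.80 and 0.67 for the first 2 with a pseudocount of 20 CPM, and 0.67, 0.58 and 0.79 in the late zone. Spearman's rho of both strains was 0.46 at 200 reads, 0.50 with a pseudocount of 20 CPM and 0.31 in the late zone. The cause was not tested. Of 120 single-gene values recomputed 480 times, 450 stayed within their counting interval, 30 left it and 0 reversed. Leaving out libraries under 10000 reads gave no value for set2 after K36me3 in both steps. Depth limits set2, where a mean of 3.41 reads fell on a gene.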
